A study of Homo sapiens with 2 samples.

Results

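PC-3 is an androgen-independent line of human prostate cancer cells, and riccardin D (RD) is a macrocyclic bisbibenzyl purified from a liverwort. Expression was profiled in 1 culture given RD (10 µmol/L, 24 h) and in 1 control culture, each on a single Affymetrix HG-U133 Plus 2.0 array. The protocol gives the DMSO vehicle for the control, whereas its source label reads as untreated, and the labels give the time but not the dose, which comes from the publication. Both cultures were of the same line in serum-containing medium. The histone chaperones are described here through 10 genes, ASF1A, ASF1B, CHAF1A, CHAF1B, NASP, HIRA, DAXX, ATRX, HJURP and NAP1L1, which 27 of the 54613 probe sets read without naming another gene. A probe set is a group of short oligonucleotides against 1 transcript. The genes were chosen by their roles at a time when the differences between these 2 arrays were already known, so that every RD to control difference of a member below is a description and not a test. The study itself had listed ATRX among the repair genes of these arrays.

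Histone chaperones are acidic proteins that hold free histones and hand them to DNA or to each other. During S phase, newly made H3-H4 dimers pass from the carrier NASP to ASF1 and then to chromatin assembly factor 1 (CAF-1), which is tethered to the sliding clamp behind the replication fork. Outside replication, the HIRA complex and the DAXX-ATRX pair place the variant H3.3, and HJURP places the centromeric variant CENP-A after mitosis. ASF1 has a pair of paralogs, of which ASF1A is the usual partner of HIRA and ASF1B is linked to proliferation. CHAF1A, CHAF1B, ASF1B and NASP were therefore taken as the replication-coupled class, and ASF1A, HIRA, DAXX, ATRX and HJURP as the replication-independent class. NAP1L1, a carrier of H2A-H2B, was placed in neither. NASP and both ASF1 proteins can feed either route, and the division is one of main partners only.

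Values are linear MAS5 signals, an intensity computed per probe set. The median over every signal of the pair of arrays, 66.9, served as a floor. A gene or probe set was counted as lower or higher in RD when RD and control were at least 2-fold apart and the larger value reached that floor. The brightest probe set represented a gene that had more than 1. With 1 array per condition no p-value exists, and the disagreement between probe sets of 1 gene is the only spread at hand. It holds no variation between cultures or arrays. The SD of the log2 differences between probe sets of 1 gene was 0.76 for the 18518 probe sets that reached the floor. It was 0.34 for the 8576 that reached 377.4, the upper quartile of the signals. The arrays were alike in scale, with median signals of 65.9 and 67.8. Of 4 epithelial markers, KRT18 (10224.2 in control and 15416.6 in RD) and the dim KRT8 (113.8 and 159.3) reached the floor, while EPCAM and CDH1 lay under it on both arrays. The leukocyte markers PTPRC and CD3E, the fibroblast marker COL1A2 and the androgen target KLK2 also lay under the floor, CD79A, KLK3 and DCN were at 95.2 to 230.6, and COL1A1 was at 370.6 and 325.8. By their brightest probe sets, none of the markers that reached the floor differed 2-fold.

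The upstream sequences of ASF1B and HJURP, the members with the lowest RD to control ratios, are shown beside that of ASF1A, the only member counted as higher, because the ASF1 paralogs differed in opposite directions. Each run is the 250 bases before the RefSeq start in build GRCh38.p14, read 5′ to 3′ on the strand of the gene. Capitals mark the letters TTTGAA, the form of the cell cycle homology region (CHR) found here, and CCAAT, which reads ATTGG when it lies on the other strand. ASF1B lies at chr19:14136590-14136839 (minus strand), HJURP at chr2:233854536-233854785 (minus strand) and ASF1A at chr6:118893902-118894151 (plus strand).
ASF1B: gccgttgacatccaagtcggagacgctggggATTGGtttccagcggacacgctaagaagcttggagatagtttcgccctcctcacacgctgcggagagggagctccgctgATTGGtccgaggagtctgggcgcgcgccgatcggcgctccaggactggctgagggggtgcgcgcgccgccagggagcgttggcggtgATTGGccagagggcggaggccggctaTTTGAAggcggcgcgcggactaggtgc
HJURP: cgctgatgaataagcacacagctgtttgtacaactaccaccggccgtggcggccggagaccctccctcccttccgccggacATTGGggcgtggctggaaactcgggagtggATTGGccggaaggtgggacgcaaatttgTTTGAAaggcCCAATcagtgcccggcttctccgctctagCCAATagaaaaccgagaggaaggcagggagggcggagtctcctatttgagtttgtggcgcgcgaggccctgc
ASF1A: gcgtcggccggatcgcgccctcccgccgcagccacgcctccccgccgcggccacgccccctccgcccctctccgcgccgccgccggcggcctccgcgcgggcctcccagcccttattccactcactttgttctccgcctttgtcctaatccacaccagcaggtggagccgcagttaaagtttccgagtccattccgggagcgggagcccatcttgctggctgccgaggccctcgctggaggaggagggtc

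RefSeq promoters of 300 bases (250 before to 50 after the start) were at hand for 8 of the 10 members, without DAXX and ATRX. CHR letters (TTTGAA or TTCGAA, either strand) occurred in 2 of these 8, ASF1B and HJURP, and in 16.4% of 35116 promoters. In ASF1B the match starts 27 bases before the start of the gene, with a reversed CCAAT 53 bases before it, and in HJURP the match starts at 111 bases with a forward CCAAT at 101. CCAAT in either orientation occurred in 5 of the 8, namely ASF1A, ASF1B, CHAF1A, HJURP and NASP, and in 34.6% of all promoters. In ASF1A it lies 16 bases after the start and so outside the run above. The E2F letters TTTCGCGC, TTTGGCGC, TTTCCCGC and TTTGCCGC were found in 1 member, HIRA, as TTTCCCGC, and in 3.31% of all promoters. These are matches of letters, and binding was not measured.

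In RD-treated cells, 3 of the 4 replication-coupled chaperones were counted as lower by their brightest probe sets, by 2.22-fold to 15.2-fold. Of the 5 replication-independent ones, HJURP was 4.97-fold lower and ASF1A 2.21-fold higher. The brightest probe sets of the others, HIRA, DAXX and ATRX, lay between 0.906 and 1.17 of control. By their brightest probe sets, 4 of the 10 members were counted as lower (ASF1B, HJURP, CHAF1B and CHAF1A) and 1 as higher (ASF1A). The same rule counted 13.3% of 12818 genes at or above the floor as lower and 12.1% as higher. Since the members were picked with this contrast known, nothing is read from their share. All 10 members reached the floor by their brightest probe set. Of their 27 probe sets, 25 reached it, 7 were counted as lower and 1 as higher, against 13.0% and 14.2% of the 30507 probe sets at or above the floor. In RNA from whole cultures, fewer cells in a state that makes a transcript and less transcript per cell cannot be told apart.

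**Figure D1:**
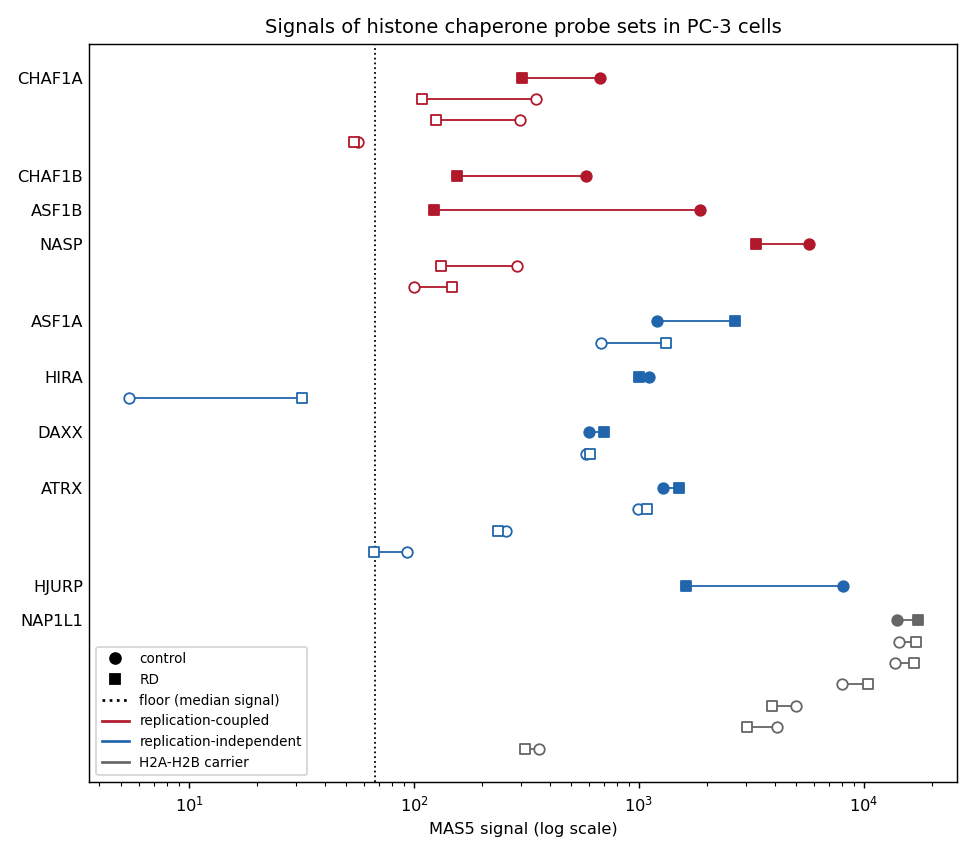
MAS5 signal (horizontal axis, logarithmic) for the 27 probe sets of the 10 chaperone genes in control (circles) and RD (squares), with a line from one to the other. The brightest probe set is filled, the others are open, colors give the class, and the floor of 66.9 is dotted. The square of ASF1B lies at 122.7 against a circle at 1860.7, and the pairs of DAXX lie close together.

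CAF-1 carries H3-H4 to the replication fork, and both genes of its specific subunits were lower. CHAF1A, the large subunit, had a signal of 669 in control and 302 in RD by its brightest probe set, which is 2.22-fold lower. Its next probe sets read 347.8 and 108.1, and 296.1 and 125.1. These 3 probe sets had log2 differences (RD minus control) of -1.15 to -1.69 with an SD of 0.29, and the fourth, at 56.3 and 54.1, lay under the floor on both arrays. CHAF1B, the middle subunit, was read by 1 probe set, at 579.4 in control and 155.7 in RD, which is 3.72-fold lower. The subunits lay on the same side by every probe set above the floor, by more than the SD of 0.76 between probe sets. That SD comes from the same arrays and does not measure variation between cultures. RBBP4, the histone-binding subunit that CAF-1 shares with other complexes, read 4672.7 and 4193.9 by its brightest probe set, and its 6 probe sets ran from 0.898 to 2.14 of control. Its paralog RBBP7, which belongs to the HAT1 complex and others, was at 0.522 of control, short of 2-fold.

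The ASF1 paralogs, which receive H3-H4 in the cytosol and pass it on, differed most from each other. ASF1B had the lowest ratio of the 10, with a signal of 1860.7 in control and 122.7 in RD, or 15.2-fold lower. Both signals lay above the floor, and 46 of the 12818 genes had a difference that low, ASF1B included. It was read by 1 probe set, so no second reading was available on these arrays. ASF1A went the other way in both of its probe sets, from 1202.4 to 2661 (2.21-fold) and from 674.1 to 1317.5 (1.95-fold), so that the second stopped short of 2-fold. Of the 12818 genes, 1241 had a difference as high as that of ASF1A. Between the paralogs the log2 differences were 5.07 apart by the brightest probe sets and 4.89 apart with the other ASF1A probe set. These are changes within each probe set, and they do not say which paralog was the more abundant.

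NASP, which shelters soluble H3-H4 and feeds both routes, was lower by less than 2-fold. Its brightest probe set read 5678.7 in control and 3326 in RD, at 0.586 of control. A second read 287.8 and 131.2, which is 2.19-fold lower, and the dimmest read 100.2 and 147.7, at 1.47 of control. For NASP, the SD over the 3 log2 differences was 0.89. NASP is therefore the replication-coupled member whose call and direction changed with the probe set.

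**Figure D2:**
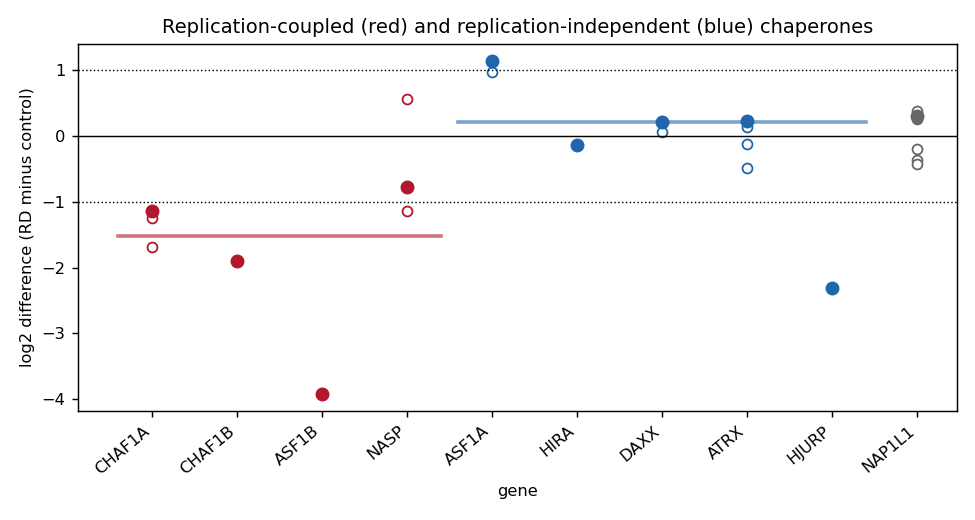
Difference in log2 signal (RD minus control, vertical) of each probe set at or above the floor, by gene. Filled circles are the brightest probe sets, open circles the others, dotted lines mark 2-fold, and thick lines are the class medians of -1.52 (red, replication-coupled) and 0.22 (blue, replication-independent); gray is NAP1L1.

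Among the H3.3 chaperones, HIRA, DAXX and ATRX stayed within 2-fold by every probe set at or above the floor. HIRA, the scaffold of the complex that places H3.3 in active genes, read 1104.9 in control and 1001.3 in RD, at 0.906 of control. Its other probe set, at 5.4 and 31.9, was under the floor on both arrays and gives no fold. DAXX, which holds H3.3-H4 and works with ATRX at telomeric and pericentric repeats, read 596.8 and 695.4 by one probe set and 582.1 and 605.4 by the other, at 1.17 and 1.04 of control. ATRX, the remodeling ATPase of that pair, was at 1.17, 1.09 and 0.923 of control by its 3 brighter probe sets, with signals of 1276.3 and 1498.8, 994.1 and 1088.4, and 256.3 and 236.5. Its dimmest probe set read 92.8 and 66.4, with the RD signal just under the floor. These differences of HIRA, DAXX and the 3 brighter ATRX probe sets were smaller than the SD of 0.34 between bright probe sets of a gene. The ATRX probe set at 256.3 and 236.5 lay under the 377.4 from which that SD was taken. Its difference was also smaller than the SD of 0.76 for all probe sets at the floor. That does not show that the transcripts were unaltered, since no culture was repeated.

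HJURP stood apart from the rest of the replication-independent class. Its only probe set read 8057.1 in control and 1622 in RD, or 4.97-fold lower, and 327 of the 12818 genes had a difference that low. HJURP works outside S phase but, like other centromere genes, is expressed mainly in dividing cells. Its partners in CENP-A loading were also read lower. OIP5, a subunit of the Mis18 complex that marks the centromere for HJURP, went from 3953.5 to 1306.5 and was 3.03-fold lower. CENPA, the histone that HJURP carries, went from 1104.4 to 602.2 (0.545 of control), and MIS18A, the partner of OIP5, from 1296.6 to 720.3 (0.556 of control). Neither reached 2-fold, and these last genes were named after their values were seen.

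NAP1L1, which carries H2A-H2B between cytosol and nucleus, split by probe set. Its brightest probe set read 14059.4 and 17363.3, at 1.24 of control. In all, 4 of its 7 probe sets, with control signals from 7970.6 to 14242.6, had higher signals in RD, at 1.19 to 1.30 of control. The other 3, with control signals from 360.3 to 5002.9, were lower, at 0.741 to 0.868 of control. None was counted, and the 7 log2 differences had an SD of 0.35. That is close to the 0.34 between bright probe sets, though the dimmest of the 7 lay under the 377.4 from which that SD was taken. Which transcripts each probe set reads was not analysed here.

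Set against each other, the classes differed in the median log2 difference, which was -1.52 over the 4 replication-coupled genes and 0.22 over the 5 replication-independent genes. The medians were 1.74 apart. With only probe sets that carry no shared-sequence suffix, 3 and 2 genes were left, the replication-independent median turned to -0.67 and the replication-coupled one was -1.90, so that the gap was 1.22 (log2) and the sign of the second median depended on the probe sets. Over all 12818 genes the median was -0.0022. In the replication-coupled class all 4 genes had lower signals and 3 were counted as lower, whereas in the other class 2 had lower and 3 had higher signals, with 1 counted on each side. Without HJURP the second median was 0.23 and the gap 1.75, so that HJURP decided the count but hardly the median. With CAF-1 alone against HIRA, DAXX, ATRX and HJURP, leaving out the carriers that feed both routes, the gap was 1.56. By brightest probe sets the ranges overlapped through HJURP (-2.31). Without it every replication-independent gene (-0.14 to 1.15) lay above every replication-coupled one (-3.92 to -0.77). By single probe sets the classes overlapped even without HJURP, with the dimmest NASP probe set at 0.56 and the dimmest ATRX probe set at -0.48. With members chosen in view of these values, the separation by brightest probe sets is a description.

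**Figure D3:**
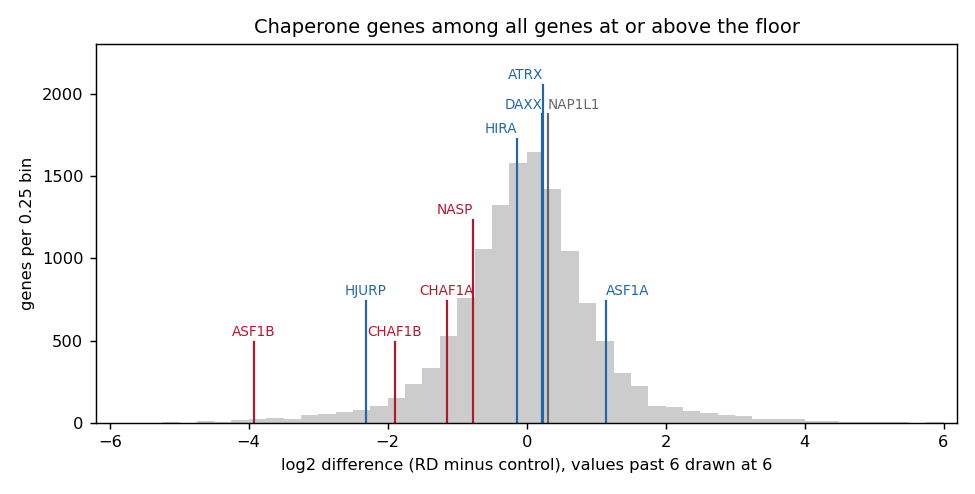
Number of genes per bin of log2 difference (RD minus control, bins of 0.25) among the 12818 genes at or above the floor (gray), with the 10 chaperone genes marked by vertical lines (red replication-coupled, blue replication-independent, dark gray NAP1L1). Line heights carry no value; ASF1B, HJURP and CHAF1B lie in the left tail and HIRA, DAXX, ATRX and NAP1L1 near the center.

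The wider set of histone chaperones and assembly factors, was listed by role with earlier results of these arrays known. Of the 30 genes analysed here, all reached the floor, 22 had lower and 8 had higher signals in RD, 2 were counted as lower and 3 as higher, and the median log2 difference was -0.43. Over all 12818 genes, 6425 had lower and 6390 had higher signals. The counts at 2-fold are 6.67% and 10% of the 30. The same rule counted 13.3% and 12.1% of all genes, and 10.9% and 9.91% of the 8094 genes that reached the upper quartile. At 1.5-fold, 13 of the 30 were lower, a larger share than the 24.7% of all genes. The 4 higher were a smaller share than the 22.8% of all genes. With so few genes, listed with earlier results known, nothing is read from these counts. Besides OIP5, the gene counted as lower was POLE4, a small subunit of DNA polymerase epsilon that binds H3-H4, from 2718.9 to 1138.1 (2.39-fold). It was lower by 2-fold in 2 of its 3 probe sets.

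By deposited signals 3 genes of this set were counted as higher, and 2 when signals under the floor were raised to it, since SRCAP then fell short of 2-fold. SPTY2D1, the human SPT2 homolog that binds H3-H4 during transcription, went from 616 to 2784.7 (4.52-fold), and its other probe set was at 2.02 of control. UBN2, a ubinuclein of the HIRA complex, went from 346.3 to 918.2 (2.65-fold), and its 3 probe sets at the floor ran from 1.77 to 3.19 of control. SRCAP, the ATPase that inserts H2A.Z, went from 49.1 to 132.9. As the control signal of this brightest probe set lay under the floor, its RD signal was also set against the floor and was 1.99-fold above it. The deposited signals of the 3 SRCAP probe sets at the floor were spread from 0.676 to 6.51 of control. The direction of SRCAP thus rested on the probe set, and no minimum is given for the gene. The remaining HIRA partners stayed under 2-fold, with UBN1 at 0.887 and CABIN1 at 0.587 of control. The HIRA complex was thus uneven, with UBN2 higher, HIRA and UBN1 within 1.5-fold of control and CABIN1 short of 2-fold on the lower side.

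**Figure D4:**
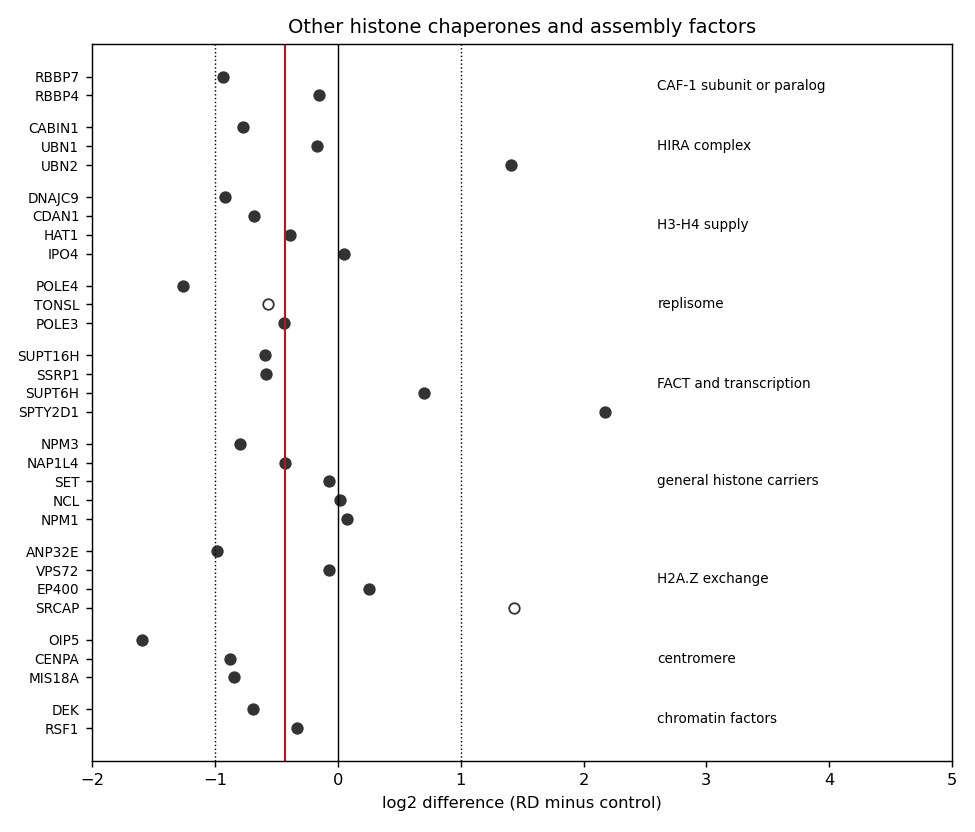
Difference in log2 signal (RD minus control, horizontal) of the 30 other chaperones and assembly factors by their brightest probe set, grouped by role. Dotted lines mark 2-fold, the red line is the median of -0.43, and open circles have 1 signal under the floor, so that their plotted difference is not a bound. OIP5 and POLE4 lie left of the 2-fold line and SPTY2D1, SRCAP and UBN2 right of it.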

How the data were processed

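RNA of 1 control and 1 RD-treated PC-3 culture was profiled on 1 Affymetrix array each. The authors deposited intensities, namely MAS5 signals on a linear scale according to the submitters' processing notes, which subtract mismatch probe signals and leave dim values noisy. The sources used here give no MAS5 version, scaling target or detection calls. Each array had been scaled alike (means without the highest and lowest 2% of 495.8 and 495.9), and no further scaling was applied. The log2 differences were computed without an offset. Gene names came from the annotation of the platform, and a look-up of each gene ID in RefSeq (GRCh38.p14) altered 0 of them. Of the probe sets, 41091 named 1 gene (19775 genes), 1801 named several and were not used, and 11721 were unnamed. No probe set of a member named a second gene. Some genes are left unreported. The members, lists and rules were chosen with earlier results of these data known. Named outside the members were the other chaperones counted at 2-fold, RBBP4, RBBP7 and the HIRA partners, the marker genes, and CENPA and MIS18A after their values were seen. With 2 arrays no gene was named by likeness. Alternatives were median centring, quantile normalization, adding 17.1 (the lower quartile) before the log, other probe set choices, other floors, thresholds of 1.5-fold and 3-fold, and other class divisions. The scripts were tested on simulated data. The number of arrays limits the precision. Analyses ran in Python 3.11.15 with pandas 2.3.3, numpy 2.4.6 and, for plots, matplotlib 3.10.9.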

Additional observations from a re-analysis of the deposited data

How the results depend on the processing

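With no repeated culture, a value was taken as moved when it changed by more than the SD of 0.34 between bright probe sets, and a count when it changed by more than 1.5 times. Median centring, quantile normalization and the offset moved no class median and no count of members. The other floors could not move them. Every member's brightest probe set reached the upper quartile by its higher signal and had both signals above 66.9. Both other class divisions moved no class median, and they do not enter the member counts. The replication-coupled median could not change there, since the genes left out of that class were its lowest and its highest. The count of members lower stayed between 3 and 5 of 10 wherever all 10 could be counted. It was 4 of 6 with only probe sets that carry no shared-sequence suffix, but not of the same genes. There CHAF1A had only a probe set under the floor, NASP was counted with a log2 difference of -1.13, and NAP1L1 turned from 0.30 to -0.20. Members higher were 2 when a gene took the median of its probe sets, where the dim HIRA probe set put HIRA at a log2 difference of 1.21. They were 0 both at 3-fold and with only unshared probe sets, where ASF1A had a log2 difference of 0.97. That last restriction left CHAF1A and HIRA only probe sets under the floor on both arrays, and left DAXX and ATRX none. The classes then held 3 and 2 genes, with medians of -1.90 and -0.67 and a gap of -1.22 in place of -1.74. SRCAP turned to -0.56 on the log2 scale. Among the other chaperones, 13 were lower at 1.5-fold, and 1 was lower and 1 higher at 3-fold. Raising signals under the floor to it put SRCAP at a log2 difference of 0.99, under 2-fold, and left 2 higher, as did the floor at the upper quartile. The median over probe sets put UBN2 at a log2 difference of 0.82, higher in RD but under 2-fold. That median was taken over its 5 probe sets, of which 3 reached the floor. In the same setting SPTY2D1 moved from 2.18 to 1.60 and stayed above 2-fold. No paired analysis was possible because each condition had 1 array. Signal over background limits the 2 member probe sets under the floor on both arrays, for which no fold is given.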
